A study of Mus musculus with 27 samples.

Results

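Interferon-stimulated genes are the genes that cells switch on when an interferon, a secreted antiviral cytokine, binds its receptor. The 43 genes described here were chosen by name. They are the rows of the count table whose Ensembl ID carries 1 of 43 listed mouse symbols in GENCODE M21, out of 51789 gene IDs in all, and the rule uses no measured value. They fall into 10 roles: 4 interferon transcription factors (Irf9, Irf1, Irf8, Stat2), 3 genes of the ISG15 modifier system (Isg15, Usp18, Herc6), 4 IFIT proteins, 5 genes of the OAS family, the 2 Mx GTPases, 4 membrane and nucleotide antiviral factors (Rsad2, Cmpk2, Bst2, Ifitm3), 5 immunity-related GTPases (IRG), 5 guanylate-binding proteins (GBP), 5 ubiquitin and ADP-ribose enzymes (Parp14, Parp9, Dtx3l, Trim30a, Ubd) and 6 others.

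Mouse ovaries were profiled by counting 3′ tags of polyA RNA (Lexogen QuantSeq) in 27 libraries. Experiment 1 compared young untreated mice (n = 5), aged untreated mice (n = 4) and aged mice treated with TRi-1 (n = 4), which inhibits the selenoenzyme thioredoxin reductase 1. Experiment 2 compared other young untreated mice (n = 5), aged untreated mice (n = 5) and aged mice treated with auranofin (n = 4), a gold compound that inhibits thioredoxin reductases. The labels state no strain, genotype, age in weeks, dose, route or duration, and both young groups are untreated only. Each label names a mouse and a replicate number, and libraries were taken as separate mice. Were they not, the p-values would measure only the spread between these libraries, which may be technical.

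Type I interferons signal through the receptor chains Ifnar1 and Ifnar2 and the kinases Jak1 and Tyk2 to a complex that holds STAT2 and IRF9 and binds the interferon-stimulated response element (ISRE). Interferon gamma (Ifng), made mainly by T cells and NK cells, signals through Ifngr1 and Ifngr2 to the gamma-activated site (GAS) and induces IRF1 and the GTPases of the IRG and GBP families. Many of the genes answer to both kinds of interferon, and resident leukocytes carry many of them at rest.

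The promoter shows which of these elements stands near a gene. The upstream parts of 6 promoters are therefore printed here 5′ to 3′ on the gene's strand, from RefSeq on GRCm38.p6. Each run covers the 250 bases before the start, and capitals mark a match to the ISRE core (GAAA, any pair of bases, GAAA) or to the GAS (TTC, any 3 bases, GAA) on either strand. The windows are chr4:156200819-156201068 on the minus strand for Isg15, chr19:34640639-34640888 on the plus strand for Ifit1, chr14:55603735-55603984 on the plus strand for Irf9, chr3:142620413-142620662 on the plus strand for Gbp2, chr11:53769764-53770013 on the plus strand for Irf1 and chr17:37193642-37193891 on the plus strand for Ubd.
Isg15: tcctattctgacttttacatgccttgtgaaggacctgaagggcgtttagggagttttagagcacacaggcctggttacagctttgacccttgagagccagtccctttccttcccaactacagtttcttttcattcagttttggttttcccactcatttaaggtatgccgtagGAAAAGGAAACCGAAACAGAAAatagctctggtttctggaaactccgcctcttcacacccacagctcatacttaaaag
Ifit1: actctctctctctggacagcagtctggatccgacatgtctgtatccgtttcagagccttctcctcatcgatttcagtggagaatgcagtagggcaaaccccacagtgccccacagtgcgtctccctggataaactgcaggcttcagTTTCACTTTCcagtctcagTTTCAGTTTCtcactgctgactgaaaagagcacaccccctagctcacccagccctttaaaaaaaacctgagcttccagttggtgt
Irf9: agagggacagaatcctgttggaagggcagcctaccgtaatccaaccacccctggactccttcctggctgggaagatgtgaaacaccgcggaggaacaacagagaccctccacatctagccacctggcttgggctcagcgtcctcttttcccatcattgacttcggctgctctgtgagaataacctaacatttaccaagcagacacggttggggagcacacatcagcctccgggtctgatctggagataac
Gbp2: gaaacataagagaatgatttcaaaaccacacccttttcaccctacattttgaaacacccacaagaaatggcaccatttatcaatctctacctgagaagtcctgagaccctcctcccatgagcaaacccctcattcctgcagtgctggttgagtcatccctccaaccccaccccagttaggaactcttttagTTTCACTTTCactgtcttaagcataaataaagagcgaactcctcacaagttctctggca
Irf1: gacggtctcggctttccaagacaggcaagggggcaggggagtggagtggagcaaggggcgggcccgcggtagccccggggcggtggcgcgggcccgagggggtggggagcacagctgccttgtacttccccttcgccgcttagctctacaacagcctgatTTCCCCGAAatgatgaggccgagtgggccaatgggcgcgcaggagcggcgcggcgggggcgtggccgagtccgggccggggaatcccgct
Ubd: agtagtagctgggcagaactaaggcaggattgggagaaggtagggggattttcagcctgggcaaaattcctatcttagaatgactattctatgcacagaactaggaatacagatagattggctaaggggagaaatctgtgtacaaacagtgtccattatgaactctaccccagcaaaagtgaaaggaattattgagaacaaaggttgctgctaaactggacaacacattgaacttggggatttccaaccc
Isg15, a ubiquitin-like modifier, has 3 overlapping ISRE core matches that begin 78 to 66 bases before the start. Ifit1, which binds viral RNA, has 2, at 104 and 85 bases, and Gbp2 has 1 at 59 bases. Irf1, the transcription factor named above, has no ISRE core match and 1 GAS match at 90 bases, and neither motif occurs in the windows of Irf9 and Ubd. A promoter of 300 bases (with the 50 after the start) was in the RefSeq table for 33 of the 43 genes, and the one nearest the GENCODE start was read. The RefSeq start lay 15359 bases from that start for Irgm2, 2956 for Gbp5, 414 for Irf9, 263 for Irgm1, 133 for Lgals3bp and 124 for Dtx3l, so the Irf9 window lies within the GENCODE span of the gene. For 24 of the 33 the first bases after the RefSeq start lay in a transcript. The counts that follow hold for the RefSeq windows. The 32851 promoters below carry 27025 symbols, so some genes count there more than once, while each member counts once. The ISRE core occurred in 18 of these 33 (54.5%), against 3.44% of all 32851 promoters of that length in the table. The GAS occurred in 11 of 33 (33.3%), against 8.30% of all. Both motifs were found in 7 genes (Oas1a, Bst2, Ifitm3, Igtp, Irgm2, Gbp5 and Gbp7), the ISRE core alone in 11, the GAS alone in Irf1, Irf8, Ifit2 and Ifi35, and neither in 11. A match of letters is a description and not a proven binding site.

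Levels are given as CPM, counts divided by the library size after TMM normalisation and brought to one common depth. Changes are log2 fold changes ± standard error from edgeR's quasi-likelihood test, whose p-values were adjusted by Benjamini-Hochberg over all genes tested, and a gene is said to have risen or fallen when that adjusted p was below 0.05. Library totals ran from 6460903 to 14814381 counts, and within each experiment the untreated aged libraries (9791693 to 14814381 and 10139429 to 14027986) were deeper than most young ones (6460903 to 10077161 and 6782228 to 9799253). Oocyte and granulosa markers had counts in both young groups, except Amh in that of experiment 2, while Figla, an oocyte transcription factor, had no count in any of the aged groups, treated or not. Young replicate 3 of experiment 2 stood apart from the other young libraries of its experiment: its summed oocyte markers (3.42 CPM) and granulosa markers (79.2 CPM) were the lowest of the 5. Aged replicate 3 of experiment 1 and auranofin replicate 3 also stood apart, and results are given with and without these 3 libraries where they differ. The 3 were picked after seeing the data and are not the only unusual libraries. Auranofin replicate 4 was not among them, though it had the fewest genes with a count (17302) of all 27 libraries.

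The first comparison asked how aged ovaries differ from young ones. In experiment 1 the interferon-stimulated genes were higher in aged ovaries across all 10 roles: of the 42 members tested, 32 rose and 0 fell, against 18.5% of all 16028 genes tested that rose and 16.4% that fell. The median change of the 42 was 1.52, against 0.02 over all genes. All 42 had a positive value, and 22 did not overlap between the 4 aged and the 5 young libraries (background for higher without overlap 14.0% of genes). Ifit2, with at most 33 counts in any group, was too low to be tested in either experiment. The plot of all members by library shows the pattern gene by gene.

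**Figure D1:**
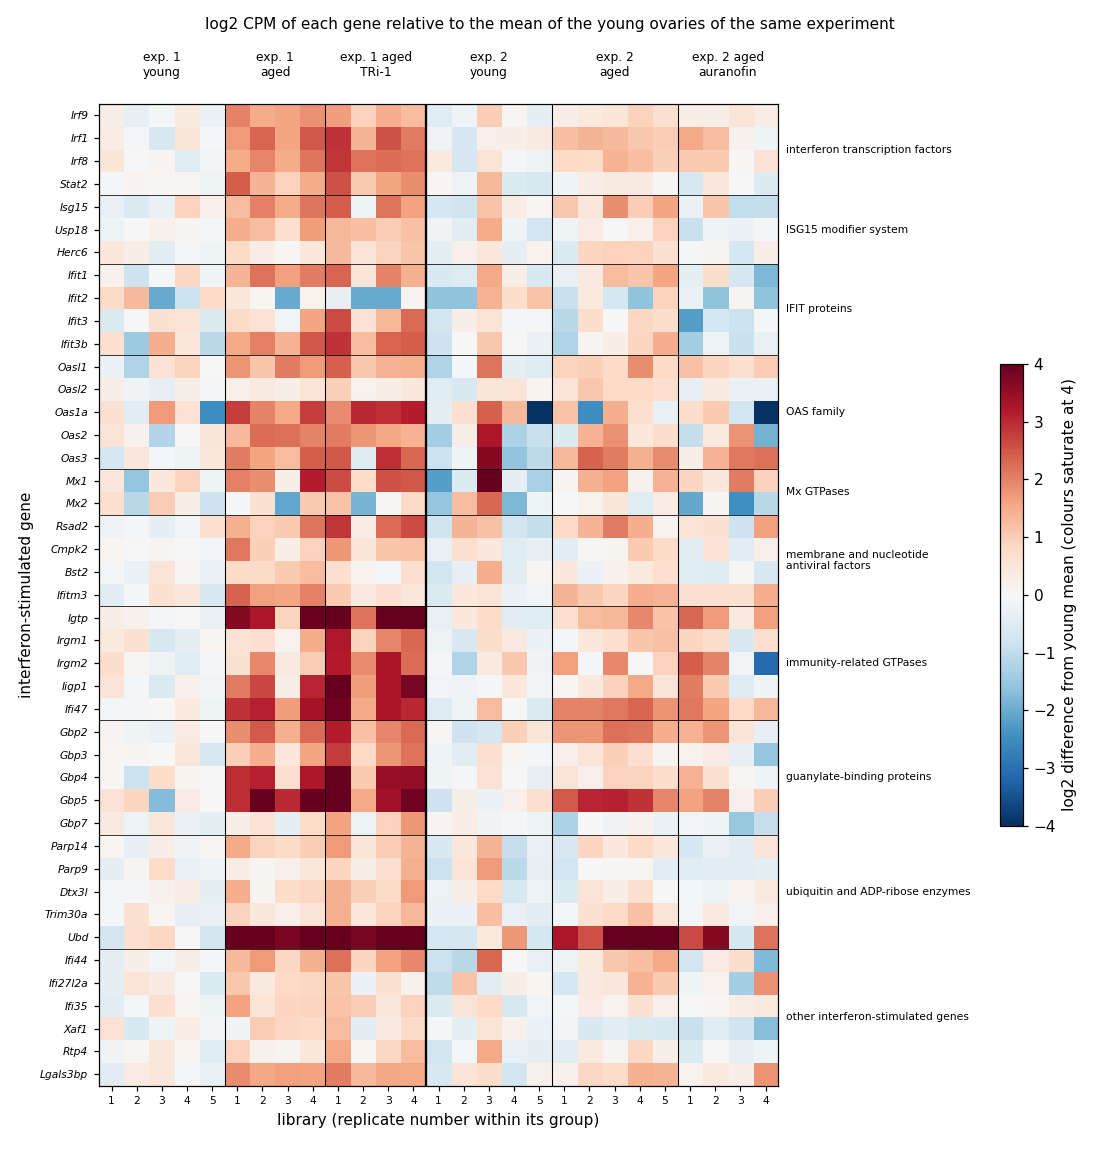
Each cell is the log2 CPM of 1 gene (rows, grouped by role) in 1 library (columns, numbered by replicate within the 6 groups) minus the mean of the young libraries of the same experiment. Red spreads over the aged and TRi-1 libraries of experiment 1 (median over the genes 0.83 to 1.62 and 0.87 to 2.20), while in experiment 2 young replicate 3 (median 0.81) is as red as aged replicates.

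All 4 transcription factors rose in experiment 1. Irf9, the DNA-binding part of the type I complex (ENSMUSG00000002325, chromosome 14, 55603571 to 55610030), stood at 40.4, 27.2, 32.8, 44.6 and 29.4 CPM in the 5 young and at 136, 96.9, 102 and 122 CPM in the 4 aged ovaries of experiment 1. Every aged library lay above every young one, and the change was 1.72 ± 0.20 (adjusted p = 1.3e-05), the smallest p of all members. Its annotated span overlaps Rnf31 on the same strand, so some tags could belong to either. Irf1 (ENSMUSG00000018899, chromosome 11, 53770014 to 53778374) stood at 47.3, 35.9, 24.4, 53.1 and 36.6 CPM in young and 124, 193, 115 and 212 CPM in aged ovaries. Irf8, a factor of macrophages and dendritic cells (ENSMUSG00000041515, chromosome 8, 120736358 to 120756694), stood at 26.4, 19.4, 20.6, 13.6 and 17.5 CPM in young and 53.1, 74.2, 53.1 and 84.5 CPM in aged ovaries. Stat2, the partner of IRF9, stood at 7.68, 8.82, 8.71, 8.72 and 7.14 CPM in young and 44.5, 21.2, 15.8 and 23.3 CPM in aged ovaries. In all of these the age groups were separate. Irf1 rose by 2.05 ± 0.29 (adjusted p = 8.5e-05), Irf8 by 1.78 ± 0.23 (adjusted p = 3.4e-05) and Stat2 by 1.68 ± 0.32 (adjusted p = 0.00074).

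Among the antiviral effectors the size of the change differed from gene to gene. Isg15 (ENSMUSG00000035692, chromosome 4, 156199424 to 156200818) stood at 12.7, 10.4, 12.8, 29.7 and 17.9 CPM in young and 37.6, 63.2, 44.1 and 69.5 CPM in aged ovaries, separate groups and a rise of 1.70 ± 0.41 (adjusted p = 0.0040). Usp18, the protease that removes ISG15 and damps the type I receptor, stood at 4.29, 4.96, 5.56, 5.37 and 4.66 CPM in young and 13.8, 11.9, 7.95 and 16.2 CPM in aged ovaries and rose by 1.34 ± 0.25 (adjusted p = 0.00076). Ifit1 stood at 19.9, 9.75, 17.0, 31.3 and 15.6 CPM in young and 45.4, 79.6, 55.1 and 72.2 CPM in aged ovaries and rose by 1.77 ± 0.34 (adjusted p = 0.00091). The age groups were separate in all 3 genes. Ifit3 overlapped, at 10.6, 15.9, 24.3, 22.7 and 10.9 CPM in young and 27.2, 23.9, 14.7 and 48.0 CPM in aged ovaries, with a value of 0.77 ± 0.41 (adjusted p = 0.15), while its neighbour Ifit3b had 1.63 ± 0.52 (adjusted p = 0.024). Tags of these related genes can be shared, although the best local alignment of the last 300 bases of their longest coding transcripts spanned only 56 positions at 66.1% identity.

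The OAS genes encode synthetases that activate RNase L, or relatives without that activity. Oas1a, at 1.47, 0.619, 3.33, 1.43 and 0 CPM in young and 7.26, 4.08, 2.90 and 7.21 CPM in aged ovaries, rose by 1.99 ± 0.64 (adjusted p = 0.024) with young replicate 3 above the lowest aged library, and Oas2, Oas3 and Oasl1 rose by 2.00 ± 0.44, 1.97 ± 0.55 and 1.58 ± 0.40. Oasl2, the most counted of the family, stood at 80.3, 61.6, 54.3, 79.4 and 65.5 CPM in young and 77.8, 87.5, 80.7 and 99.1 CPM in aged ovaries and did not pass (0.35 ± 0.19, adjusted p = 0.16). The Mx genes encode dynamin-like antiviral GTPases, but GENCODE M21 lists Mx2 as a polymorphic pseudogene, so its tags need not stand for a working protein. Mx1 was scarce at 0.565, 0, 0.556, 0.836 and 0.291 CPM in young and 2.09, 1.83, 0.467 and 4.69 CPM in aged ovaries and rose by 2.30 ± 0.80 (adjusted p = 0.035), and Mx2 had 0.07 ± 0.72 (adjusted p = 0.95). All 4 membrane and nucleotide factors rose without overlap. Ifitm3, which blocks viral fusion in endosomes (ENSMUSG00000025492, chromosome 7, 141009586 to 141010770), was the highest member of the list in counts, with 628, 802, 1284, 1147 and 549 CPM in young and 4243, 2596, 2492 and 3402 CPM in aged ovaries, a rise of 1.86 ± 0.26 (adjusted p = 6.4e-05). Rsad2 (viperin) stood at 32.8, 34.7, 27.8, 33.5 and 56.6 CPM in young and 96.5, 68.0, 75.2 and 159.8 CPM in aged ovaries and rose by 1.45 ± 0.39 (adjusted p = 0.0083). Bst2 (tetherin) stood at 38.3, 33.8, 57.6, 41.5 and 34.2 CPM in young and 69.0, 68.6, 83.3 and 94.3 CPM in aged ovaries and rose by 0.95 ± 0.21 (adjusted p = 0.0028).

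The IRG and GBP families, GTPases that attack the vacuoles of intracellular microbes and are classic targets of interferon gamma, held 4 of the 5 largest changes of experiment 1. Igtp (ENSMUSG00000078853, chromosome 11, 58199556 to 58207591) stood at 25.4, 24, 20.2, 21.1 and 17.4 CPM in young and 278, 202, 39.5 and 335 CPM in aged ovaries. Aged replicate 3, at 39.5 CPM, lay far nearer the young libraries than the other aged ones, and the rise was 3.32 ± 0.50 (adjusted p = 0.00013). Iigp1 repeated this, at 63.6, 41.6, 29.3, 49.8 and 39.9 CPM in young and 185, 276, 52.6 and 357 CPM in aged ovaries, and rose by 2.30 ± 0.47 (adjusted p = 0.0014) with that library inside the young range. Gbp4 also placed aged replicate 3 inside it, at 5.08, 2.63, 8.34, 5.25 and 4.81 CPM in young and 39.1, 43.7, 7.95 and 48.3 CPM in aged ovaries, and rose by 2.76 ± 0.56 (adjusted p = 0.0014). Gbp2 (ENSMUSG00000028270, chromosome 3, 142620602 to 142638008) kept its groups apart at 67.0, 55.0, 51.7, 76.7 and 60.9 CPM in young and 223, 336, 166 and 298 CPM in aged ovaries and rose by 2.06 ± 0.31 (adjusted p = 0.00012). Ifi47 stood at 21.8, 21.8, 23.0, 30.1 and 19.8 CPM in young and 172, 202, 74.3 and 234 CPM in aged ovaries and rose by 2.89 ± 0.38 (adjusted p = 3.9e-05). Gbp5 stood at 5.42, 6.66, 0.926, 4.54 and 3.50 CPM in young and 28.8, 63.8, 29.6 and 64.9 CPM in aged ovaries and rose by 3.48 ± 0.54 (adjusted p = 0.00014). Both had separate groups, while Gbp7 (0.34 ± 0.33, adjusted p = 0.46) and Irgm1 (0.77 ± 0.41, adjusted p = 0.16) did not pass. Annotated spans of Igtp and Irgm2 overlap on 1 strand, and that of Gbp4 overlaps Gbp8 and Gbp9, so these counts may be shared.

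The largest change of any member was that of Ubd, a ubiquitin-like modifier known as FAT10 that interferon gamma and tumour necrosis factor induce together (ENSMUSG00000035186, chromosome 17, 37193892 to 37196095). It had 5 counts over the 5 young libraries and 1057 over the 4 aged ones, or 0, 0.310, 0.370, 0.119 and 0 CPM against 14.6, 31.5, 4.11 and 49.0 CPM, a rise of 7.35 ± 1.08 (adjusted p = 9.7e-05). Parp14, an ADP-ribosyltransferase, stood at 33.5, 25.4, 38.9, 28.6 and 33.1 CPM in young and 90.4, 58.2, 53.6 and 62.0 CPM in aged ovaries and rose by 1.06 ± 0.23 (adjusted p = 0.0024). Lgals3bp, a secreted glycoprotein that binds galectins, stood at 51.2, 86.5, 95.01, 65.7 and 56.3 CPM in young and 254, 201, 216 and 213 CPM in aged ovaries and rose by 1.65 ± 0.21 (adjusted p = 3.2e-05). Ifi27l2a, a mitochondrial protein, stood at 225, 423, 378, 299.6 and 203 CPM in young and 625.1, 382, 507 and 521 CPM in aged ovaries, groups that overlapped, and rose by 0.74 ± 0.27 (adjusted p = 0.042). The 10 members that did not pass were Herc6, Ifit3, Oasl2, Mx2, Irgm1, Gbp7, Parp9, Trim30a, Xaf1 and Rtp4, with values from 0.07 to 0.77.

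Of the 32 calls, 25 held without any 1 of the 13 libraries of the experiment. Irgm2 lost its call in 9 of the 13 such fits (0.67, adjusted p = 0.20 without aged replicate 2), Ifi27l2a in 8 (0.61, adjusted p = 0.11 without young replicate 1) and Mx1 in 7 (1.66, adjusted p = 0.16 without aged replicate 4). Oas1a lost it without young replicate 2 or aged replicate 1 or 4, Ifit3b without young replicate 5 or aged replicate 4, Gbp3 without aged replicate 4 and Dtx3l without aged replicate 1, and the change of Cmpk2 fell from 1.24 to 0.77 without aged replicate 1. The opposite-strand genes Parp9 and Dtx3l overlap, and the strand of counting is not given in the sources used here. Sorted by promoter motif, 8 of the 11 genes with the ISRE core alone rose (median 1.63), as did 6 of the 7 with both motifs (1.86), 3 of the 3 tested with the GAS alone (1.78) and 8 of the 11 with neither (1.36). Of all 16028 genes tested 18.5% rose.

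**Figure D2:**
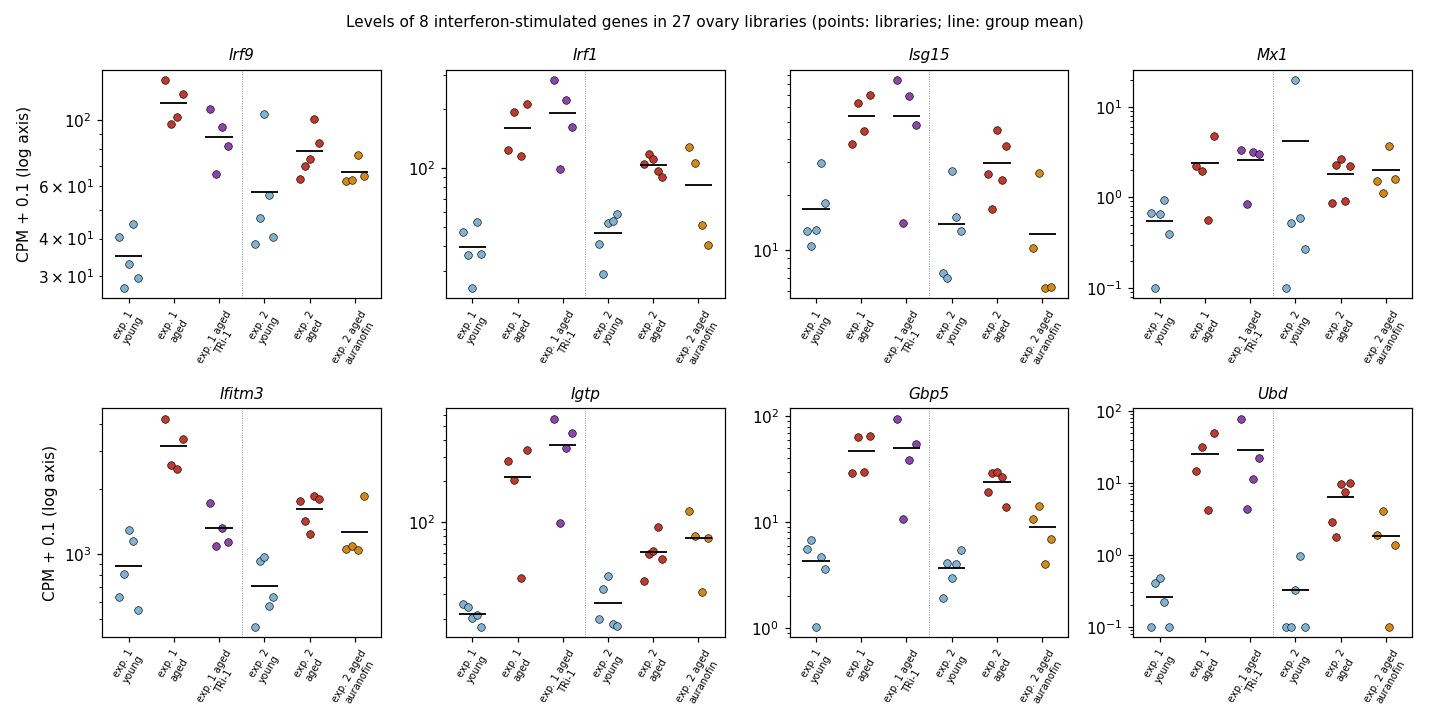
CPM + 0.1 on a log axis for 8 genes, with 1 point per library, a line at the group mean and the 6 groups on the horizontal axis. Irf9 and Irf1 of experiment 1 show separate young and aged groups, Igtp shows aged replicate 3 at 39.5 CPM below the other aged libraries, and Mx1 shows young replicate 3 of experiment 2 at 19.6 CPM, above all other libraries.

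Experiment 2 repeated the comparison in other mice and gave fewer calls. Of 42 members 8 rose and 0 fell, against 5.86% of all 16309 genes that rose and 4.59% that fell, and 8 were higher without overlap (background 6.46%). The 8 that rose were Irf1, Irf8, Ifitm3, Igtp, Ifi47, Gbp2, Gbp5 and Ubd, all of which also rose in experiment 1. The median change of the 42 was 0.48 and 34 of 42 values were positive.

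Irf1 stood at 41.1, 28.7, 52.7, 53.7 and 58.2 CPM in young and 105, 118, 112, 96.5 and 90.2 CPM in aged ovaries of experiment 2, a rise of 1.16 ± 0.29 (adjusted p = 0.019). Irf8 stood at 43.8, 20.9, 49.5, 32.5 and 28.9 CPM in young and 58.7, 55.7, 88.0, 77.7 and 64.9 CPM in aged ovaries and rose by 0.98 ± 0.26 (adjusted p = 0.024). Both factors had separate groups. Gbp2 stood at 39.9, 22.0, 24.5, 75.2 and 54.9 CPM in young and 133, 132, 179, 172 and 107 CPM in aged ovaries and rose by 1.75 ± 0.39 (adjusted p = 0.0092). Gbp5 (ENSMUSG00000105504, chromosome 3, 142493978 to 142522344), at 1.80, 4.02, 2.85, 3.88 and 5.35 CPM in young and 19.2, 29.0, 29.9, 26.5 and 13.7 CPM in aged ovaries, had the smallest p of the members and rose by 2.72 ± 0.38 (adjusted p = 0.00055). Ifi47, at 14.3, 17.9, 50.3, 20.7 and 13.8 CPM in young and 81.5, 81.9, 89.1, 105 and 71.4 CPM in aged ovaries, rose by 1.87 ± 0.35 (adjusted p = 0.0029). These GTPases were separate between the groups, and Igtp was not: it stood at 19.8, 32.8, 40.5, 18.3 and 17.5 CPM in young and 37.7, 58.7, 61.4, 93.2 and 54.2 CPM in aged ovaries and rose by 1.24 ± 0.35 (adjusted p = 0.034). Ifitm3 stood at 458, 922, 968, 571 and 630.4 CPM in young and 1763, 1428, 1234, 1849 and 1791 CPM in aged ovaries and rose by 1.18 ± 0.25 (adjusted p = 0.0071). Ubd had 11 counts over the 5 young and 377 over the 5 aged libraries, at 0, 0, 0.228, 0.874 and 0 CPM in young and 2.78, 1.69, 9.42, 7.30 and 9.998 CPM in aged ovaries, and rose by 4.73 ± 1.15 (adjusted p = 0.015). The calls of Ifitm3, Ifi47, Gbp2, Gbp5 and Ubd held without any 1 of the 14 libraries. Igtp lost its call in 7 of those fits (1.02, adjusted p = 0.10 without aged replicate 4), Irf8 in 5 (without young replicate 2, 4 or 5 or aged replicate 3 or 4) and Irf1 in 2 (without young replicate 1 or 2).

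The remaining members did not pass in experiment 2, and young replicate 3 was often the highest young library in them. Irf9 stood at 38.4, 47.0, 105, 56.0 and 40.3 CPM in young and 63.4, 70.2, 73.8, 101 and 83.9 CPM in aged ovaries (0.45 ± 0.26, adjusted p = 0.32). Stat2 stood at 17.8, 14.8, 42.8, 11.6 and 10.9 CPM in young and 15.2, 20.9, 21.9, 22.1 and 17.9 CPM in aged ovaries (0.00 ± 0.36, adjusted p = 1.0), and Usp18 at 5.31, 4.29, 16.8, 5.24 and 3.40 CPM in young and 5.23, 7.36, 5.94, 6.85 and 11.3 CPM in aged ovaries (0.07 ± 0.42, adjusted p = 0.95). In all 3 genes replicate 3 was above every aged library. Isg15 stood at 7.41, 6.92, 26.9, 15.1 and 12.6 CPM in young and 25.8, 16.7, 45.0, 23.99 and 36.8 CPM in aged ovaries (1.11 ± 0.46, adjusted p = 0.15), Ifit1 at 9.71, 10.4, 43.6, 17.7 and 9.68 CPM in young and 12.2, 19.1, 36.5, 32.7 and 44.7 CPM in aged ovaries (0.68 ± 0.52, adjusted p = 0.48), and Ifit3 at 13.3, 26.7, 32.6, 21.2 and 21.6 CPM in young and 10.3, 36.1, 22.2, 39.8 and 35.9 CPM in aged ovaries (0.32 ± 0.39, adjusted p = 0.70). For Isg15 and Ifit1 the other 4 young libraries were at 15.1 and 17.7 CPM or less. Bst2 stood at 27.2, 36.8, 128, 34.4 and 47.8 CPM in young and 62.1, 39.3, 52.4, 60.7 and 74.0 CPM in aged ovaries (0.08 ± 0.36, adjusted p = 0.93) and Parp14 at 22.9, 47.6, 90.6, 18.6 and 28.8 CPM in young and 22.6, 63.5, 47.4, 59.2 and 46.5 CPM in aged ovaries (0.19 ± 0.40, adjusted p = 0.84). Mx1 stood at 0, 0.415, 19.6, 0.485 and 0.170 CPM in young and 0.775, 2.20, 2.54, 0.812 and 2.13 CPM in aged ovaries (-1.29 ± 1.15, adjusted p = 0.56), so that 1 library set the sign of its value. Oas1a stood at 2.10, 4.43, 15.5, 7.09 and 0 CPM in young and 6.33, 0.338, 7.89, 4.42 and 2.21 CPM in aged ovaries (-0.45 ± 1.06, adjusted p = 0.86), with libraries near 0 in both groups.

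Of the other members named by role, Oasl2 had separate groups and the rest overlapped. Oasl2 stood at 28.1, 25.1, 55.7, 56.8 and 42.4 CPM in young and 57.0, 82.5, 69.2, 68.3 and 61.9 CPM in aged ovaries, with 0.71 ± 0.24 (adjusted p = 0.081). Rsad2 stood at 12.1, 54.3, 47.2, 12.2 and 10.8 CPM in young and 37.0, 54.5, 90.2, 57.8 and 23.3 CPM in aged ovaries (0.93 ± 0.54, adjusted p = 0.33), with young replicates 2 and 3 inside the aged range. Iigp1 stood at 36.9, 35.6, 38.9, 53.2 and 37.0 CPM in young and 41.7, 53.0, 75.8, 114 and 56.9 CPM in aged ovaries (0.76 ± 0.41, adjusted p = 0.29). Gbp4 stood at 6.01, 6.65, 10.4, 6.70 and 5.35 CPM in young and 9.88, 7.95, 13.1, 12.9 and 11.3 CPM in aged ovaries (0.65 ± 0.32, adjusted p = 0.24), far from the 39.1 to 48.3 CPM of 3 aged libraries of experiment 1. Lgals3bp stood at 57.4, 131, 146, 54.0 and 101 CPM in young and 101, 159, 151, 244 and 233 CPM in aged ovaries (0.85 ± 0.38, adjusted p = 0.18) and Ifi27l2a at 130.0, 584, 197, 310.1 and 280.5 CPM in young and 162, 340.0, 366, 693 and 553 CPM in aged ovaries (0.48 ± 0.53, adjusted p = 0.65), both with wide overlap.

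Young replicate 3 of experiment 2 had levels of its own in many members. It was the highest of the 5 young libraries for 32 of 43 members, against 25.2% of all 16309 genes tested. It was above every untreated aged library of its experiment for 19 of 43, against 27.7% of all genes. Mx1 stood at 73.2 times the mean of the other 4, Oas3 at 29.1 times, Oas2 at 16.8 times, Ifi44 at 7.04 times and Oasl1 at 6.61 times. All 4 IFIT genes were highest in it (1.57 to 3.67 times), as were all 3 genes of the ISG15 system (1.41 to 3.68 times). Of the 5 IRG genes 3 were highest in it, with Ifi47 at 3.02, Igtp at 1.83, Irgm1 at 1.81, Irgm2 at 1.21 and Iigp1 at 0.956 times the mean of the others. Of the 5 GBP genes 2 were highest in it, Gbp3 at 1.74 and Gbp4 at 1.68 times, while Gbp7 stood at 0.878, Gbp5 at 0.758 and Gbp2 at 0.511 times. Ubd stood at 1.05 times. Irf7, the factor that amplifies type I interferon, was at 11.0, 21.2, 71.4, 15.5 and 19.4 CPM and Ifng at 0 in all 5 young libraries. The low ovarian markers of this library are given above, and their part in the pattern was not tested. Whether its label is right was not tested either, so age values of experiment 2 are given with and without it.

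Without that library 14 of 42 members rose with age in experiment 2 and 40 values were positive, with a median of 0.84 and with 6.47% of all 16204 genes tested called higher. The 8 members named above passed again, and Irf9 (0.79 ± 0.19, adjusted p = 0.013), Isg15 (1.50 ± 0.46, adjusted p = 0.046), Oasl1 (1.67 ± 0.36, adjusted p = 0.0071), Oasl2 (0.84 ± 0.25, adjusted p = 0.042), Oas3 (3.03 ± 0.56, adjusted p = 0.0028) and Trim30a (0.96 ± 0.22, adjusted p = 0.011) joined them. Mx1 turned from -1.29 ± 1.15 to 2.64 ± 0.83 (adjusted p = 0.054) without passing. Without all 3 libraries that stood apart, an alternative chosen after seeing the data, 31 members rose in experiment 1 and 14 in experiment 2 (share of all genes not given here).

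**Figure D3:**
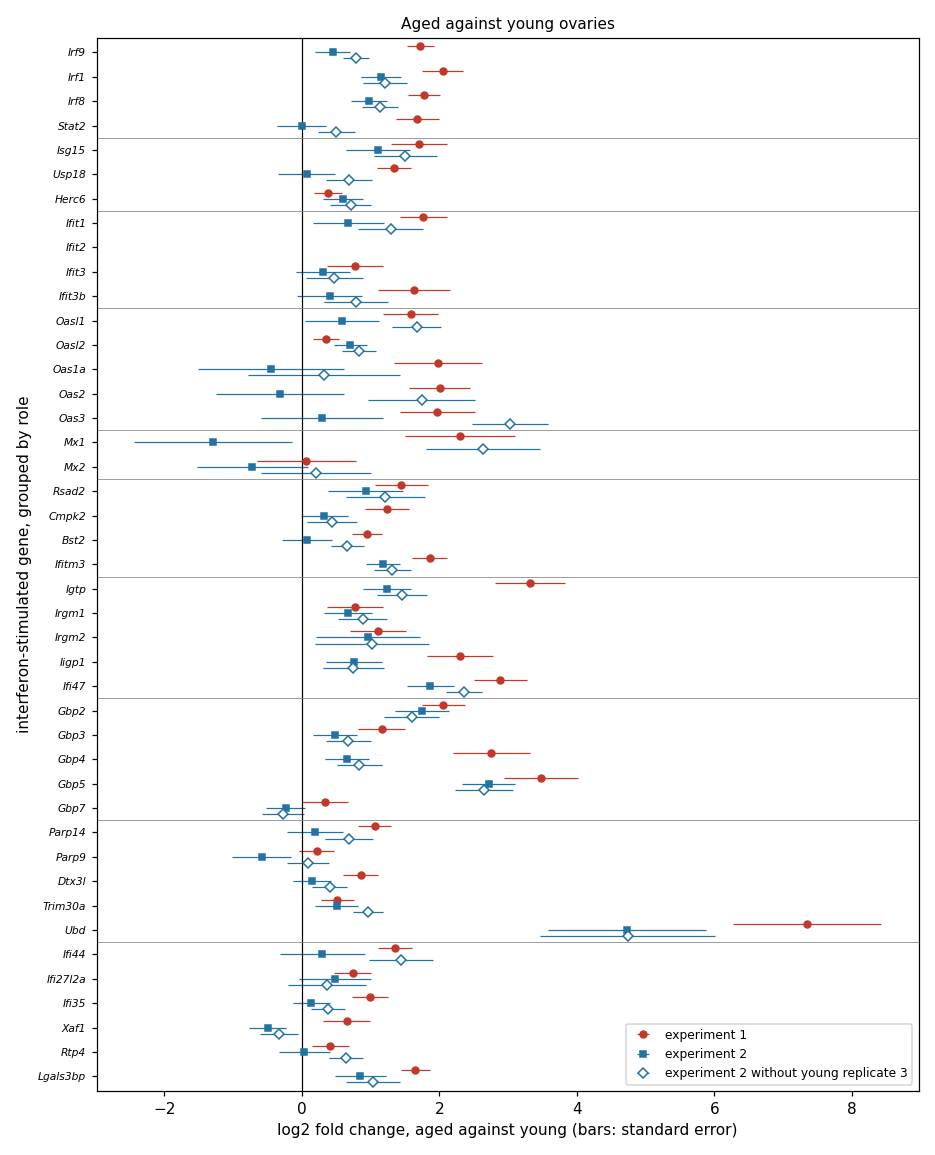
Points are log2 fold changes of aged against young ovaries with standard errors, for each member (rows, grouped by role), in experiment 1 (circles), experiment 2 (squares) and experiment 2 without young replicate 3 (open diamonds). Leaving out that library moved Mx1 from -1.29 to 2.64 and Oas3 from 0.29 to 3.03, and left Gbp2, Gbp5 and Ubd within 0.2 of their values.

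Averaged over both experiments in a fit of all 27 libraries, 26 of the 43 members rose and 0 fell (background for higher 17.5% of 17484 genes), with a median of 0.82. The smallest p were those of Gbp5 at 3.09 ± 0.35 (adjusted p = 1.7e-07), Ifi47 at 2.37 ± 0.27 (adjusted p = 2.0e-07) and Ifitm3 at 1.52 ± 0.18 (adjusted p = 4.5e-07). Of the 26 calls, 19 held without any 1 of the 27 libraries. Irgm1 lost its call in 17 of these fits, Dtx3l in 16, Herc6 in 15, Ifit3b in 8 and Usp18 in 5, and Cmpk2 (0.51, adjusted p = 0.080) and Ifi35 lost theirs without aged replicate 1 of experiment 1. The size of the age change was then compared between the experiments. Of 43 members 40 had a smaller value in experiment 2, with a median difference of -0.84, yet edgeR called 0 of them and 0% of all 17484 genes. At an unadjusted p under 0.05 there were 10 members and 2068 of all genes, limma-voom called 0, and DESeq2 called 1, Irf9 (-1.24, adjusted p = 0.039, against -1.26 ± 0.33 (adjusted p = 0.13) in edgeR). The share of all genes that DESeq2 called is not given here. The next smallest p in edgeR were those of Stat2 at -1.67 ± 0.49 (adjusted p = 0.18) and Igtp at -2.06 ± 0.63 (adjusted p = 0.19). Without young replicate 3 of experiment 2 the median difference was -0.45 and 0 members passed.

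Genes upstream of the members were read from fixed lists. Of 21 interferon ligand genes 17, Ifnb1 and the listed Ifna genes among them, had 0 counts in every library, which allows up to 0.203 to 0.464 CPM per library (3 counts, counting error only). Ifne, Ifnk and Ifnz had 21 counts together over the 27 libraries, and Ifng had 248. In experiment 1 it had 1 count over the 5 young libraries, and 2.46, 3.16, 0 and 4.86 CPM in the 4 aged ones (109 counts). The ratio of the summed levels was 96.6 (95% counting interval 17.0 to 3850). In experiment 2 it stood at 0.258, 0, 0, 0.451 and 0 CPM in aged ovaries and was not tested. Of 6 receptor genes Ifngr1 rose in both experiments (1.18 ± 0.21 and 1.22 ± 0.22) and Il10rb in experiment 1 (1.12 ± 0.25). Ifnar1 had -0.15 ± 0.41 (adjusted p = 0.80) and -0.59 ± 0.36 (adjusted p = 0.36). The kinase Tyk2 rose in experiment 1 by 1.27 ± 0.37 (adjusted p = 0.014) and had 0.41 ± 0.28 (adjusted p = 0.41) in experiment 2, and Jak2 rose in experiment 1 by 0.50 ± 0.19 (adjusted p = 0.048) and had 0.25 ± 0.31 (adjusted p = 0.70) in experiment 2. Stat3, which also serves other cytokines, rose in both, by 0.57 ± 0.18 (adjusted p = 0.023) and 0.84 ± 0.24 (adjusted p = 0.032). Among 6 inhibitors Ptpn6, a phosphatase of leukocytes, rose in both (2.30 ± 0.27 and 2.31 ± 0.39), Socs3 rose (1.92 ± 0.69) and Ptpn2 fell (-1.24 ± 0.29) in experiment 1. Irf7 rose in experiment 1 (1.81 ± 0.31, adjusted p = 0.00036) and had 0.60 ± 0.47 (adjusted p = 0.50) in experiment 2.

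Of 33 other interferon targets tested, 22 rose and 1 fell in experiment 1, with a median of 1.30, and 9 rose and 0 fell in experiment 2, with a median of 0.66. Over all genes tested, 18.5% rose and 16.4% fell in experiment 1, and 5.86% rose and 4.59% fell in experiment 2. The chemokines Cxcl9 and Cxcl10, which draw T cells, rose most in experiment 1, by 5.26 ± 0.82 and 5.28 ± 0.70. In experiment 2 Cxcl10 rose by 3.83 ± 0.72 (adjusted p = 0.0031) and Cxcl9 had 1.68 ± 0.57 (adjusted p = 0.077). The immunoproteasome subunits Psmb8 and Psmb9 rose in both experiments, Psmb8 by 2.34 ± 0.30 and 1.80 ± 0.35. The peptide transporter Tap1 rose in experiment 1 by 3.11 ± 0.27.

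Ifng and the summed GTPases were also read library by library. In experiment 1 the 5 IRG genes summed to 649, 701, 177 and 951 CPM in aged replicates 1 to 4, and the 5 GBP genes to 383, 563, 263 and 544 CPM. Ifng was at 0 in replicate 3, where Cxcl9 stood at 7.85 CPM against 218 to 319 CPM in the others. In the TRi-1 group replicate 2 was the library with no Ifng count, and its IRG sum of 329 CPM and GBP sum of 233 CPM were the lowest of the 4. Its 9 T cell markers summed to 213 CPM, within the 144 to 363 CPM of that group, while those of aged replicate 3 (64.0 CPM) were the lowest of theirs. The low levels were not limited to the GTPases. Aged replicate 3 was the lowest of its group for 28 of all 43 members and TRi-1 replicate 2 for 35 (share of all genes not given here). In experiment 2 no library had more than 1.02 CPM of Ifng. Its aged replicates 2, 3 and 5 had no Ifng count and IRG sums of 207, 252 and 206 CPM. Replicate 1, with 0.258 CPM of Ifng, had a lower sum of 179 CPM, and replicate 4, with 0.451 CPM, the highest at 331.5 CPM. Under auranofin replicate 2 had the most Ifng and a sum of 251 CPM, against 410 CPM in replicate 1 with 0.300 CPM. Auranofin replicate 3 had 1 Ifng count (0.0899 CPM) and the lowest sum (103 CPM). In counts, Ifng was at 4, 0, 0, 5 and 0 in the aged and at 4, 16, 1 and 3 in the auranofin libraries. Apart from the 16, levels from so few counts cannot be ranked. These values stand side by side, and a dependence was not tested.

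**Figure D4:**
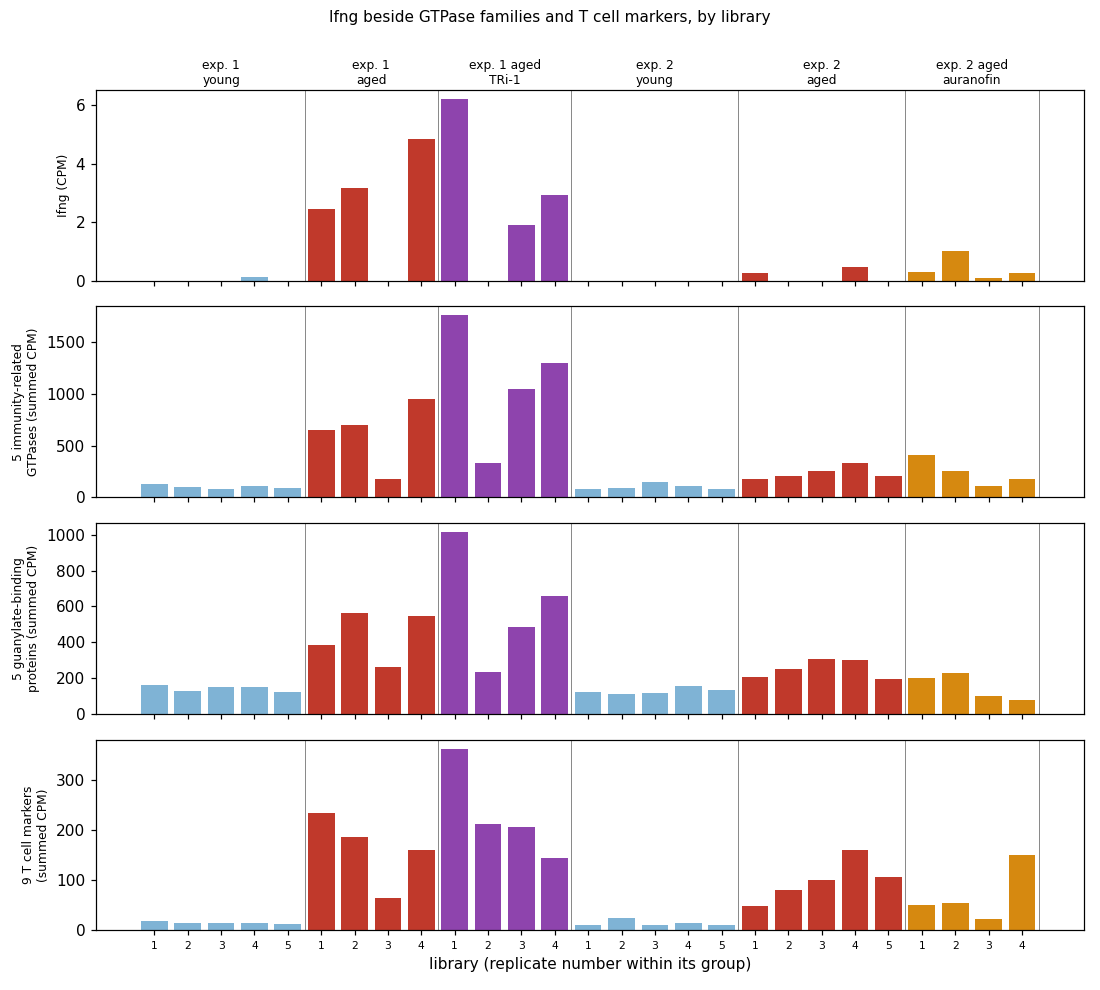
Bars give, for each of the 27 libraries in 6 groups, the CPM of Ifng, the summed CPM of the 5 immunity-related GTPases, of the 5 guanylate-binding proteins and of 9 T cell markers. Aged replicate 3 and TRi-1 replicate 2 of experiment 1 have no Ifng and the lowest GTPase sums of their groups, at 177 and 329 CPM for the immunity-related GTPases. They are also the lowest of their groups for 28 and 35 of all 43 members. In the aged group of experiment 2 the lowest sum of these GTPases (179 CPM) is in replicate 1, which has 0.258 CPM of Ifng (4 counts).

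Markers of leukocytes rose with age beside the members. The background for the counts below was 18.5% of all genes higher and 16.4% lower in experiment 1, and 5.86% and 4.59% in experiment 2. In experiment 1, 9 of 9 T cell markers rose, and their summed level was 12.5 to 19.5 CPM in young and 64.0 to 234 CPM in aged libraries. Of 10 macrophage markers 9 rose (397 to 782 against 2960 to 4489 CPM), of 6 tested NK and cytotoxic markers 4 (6.09 to 14.2 against 41.3 to 84.9 CPM), of 8 B and plasma cell markers 6 (31.0 to 55.9 against 695 to 932 CPM), of 5 plasmacytoid dendritic cell markers 4 (10.2 to 17.8 against 28.5 to 47.9 CPM) and of 8 conventional dendritic cell markers 5 (32.0 to 37.4 against 106 to 191 CPM). Neutrophil markers rose in 4 of 5 tested (9.47 to 97.4 against 667 to 2028 CPM). Granulosa markers fell in 5 of 6 and oocyte markers in 6 of 6 tested, with Amh, Fshr, Zp2, Figla and Nobox at 0 in aged ovaries. In experiment 2 the counts that rose were 7 of 9 for T cells (10.3 to 24.5 against 49.2 to 160.5 CPM), 9 of 10 for macrophages (397 to 888 against 2120 to 3525 CPM), 0 of 6 for NK and cytotoxic cells (2.55 to 22.0 against 15.2 to 39.8 CPM) and 2 of 5 for plasmacytoid dendritic cells (4.51 to 15.2 against 33.1 to 54.5 CPM). B and plasma cell markers rose in 6 of 8 there, conventional dendritic cell markers in 2 of 8 and neutrophil markers in 5 of 8, while oocyte markers fell in 4 of 5 and granulosa markers in 2 of 6. Endothelial markers rose in 3 of 7 and 0 of 7, oviduct markers in 1 of 5 and 0 of 5, and theca and stroma markers fell in 0 of 6 and 1 of 6. No T cell, B cell, macrophage or dendritic cell marker was at 0 in a whole group, and of the NK markers Gzmb was at 0 in young and Klre1 at 0 in aged ovaries of experiment 1. In experiment 1 the share of counts from haemoglobin genes was between 9.52 and 22.7% among aged libraries, above the 1.87 to 8.19% of the young ones, and between 4.50 and 12.0% under TRi-1. With those genes left out, the number of members that rose was again 32. In bulk tissue more cells of a type and more RNA per cell cannot be told apart, and the part of these cells in the members' change was not tested.

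The next comparison asked whether TRi-1 changed the members in aged ovaries. By edgeR 0 of 42 members passed (background 0.418% of 16028 genes in either direction), 10 had an unadjusted p under 0.05, as did 2650 of all genes, and DESeq2 called 3 and limma-voom 1. The shares of all genes that DESeq2 and limma-voom called are not given here. Values were positive for 29 of 42, with a median of 0.22. The largest departures were opposite in sign. Ifitm3 stood at 4243, 2596, 2492 and 3402 CPM in untreated and 1725, 1083, 1323 and 1137 CPM in TRi-1 aged ovaries, without overlap. Its value was -1.29 ± 0.27 (adjusted p = 0.051), with a 95% interval of -1.83 to -0.76 and no call, and it passed with DESeq2 (adjusted p = 0.0011), with limma-voom (0.045) and, in edgeR, without aged replicate 2 (0.040). Irgm2 stood at 4.31, 11.1, 3.65 and 5.87 CPM in untreated and 26.4, 10.9, 28.7 and 13.8 CPM in treated ovaries (1.64 ± 0.41, adjusted p = 0.074, and 0.0092 with DESeq2). Irgm1 stood at 9.84, 10.5, 7.20 and 18.4 CPM in untreated and 61.0, 12.2, 25.7 and 32.4 CPM in treated ovaries (1.48 ± 0.43, adjusted p = 0.10, and 0.023 with DESeq2). Both IRG genes overlapped between the groups, and without aged replicate 2 Irgm2 passed in edgeR at 2.09 (adjusted p = 0.032).

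TRi-1 replicate 1 was the highest of its group for 36 of 43 members and replicate 2 the lowest for 35. Igtp stood at 567, 98.3, 349 and 450.0 CPM in TRi-1 ovaries (0.75 ± 0.50, adjusted p = 0.49), Iigp1 at 765, 140.2, 422 and 609.7 CPM (1.12 ± 0.49, adjusted p = 0.27) and Gbp4 at 109, 10.4, 56.6 and 57.8 CPM (0.72 ± 0.55, adjusted p = 0.56). Replicate 2 was the lowest in all 3. Gbp2 stood at 546, 140.2, 237 and 300.3 CPM (0.23 ± 0.32, adjusted p = 0.78), Irf1 at 282, 99.2, 222 and 162 CPM (0.22 ± 0.30, adjusted p = 0.78) and Isg15 at 84.1, 13.9, 69.0 and 48.1 CPM (-0.03 ± 0.42, adjusted p = 0.99). The spread among treated libraries was wider than the distance between group means for each of these. Irf9 stood at 109, 65.6, 94.3 and 81.7 CPM (-0.41 ± 0.20, adjusted p = 0.33), Irf8 at 138, 86.3, 90.4 and 85.8 CPM, all above the untreated aged libraries (0.57 ± 0.24, adjusted p = 0.24), and Bst2 at 64.5, 44.1, 38.3 and 64.0 CPM, all below them (-0.60 ± 0.23, adjusted p = 0.20). Members higher without overlap were 1 (background 4.50%) and lower without overlap 2 (background 4.57%). For Isg15 the 95% interval of the difference was -0.85 to 0.79, for Irf9 -0.81 to -0.01 and for Gbp2 -0.40 to 0.86 (per gene, not adjusted for the number of genes).

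The values of the other fixed members under TRi-1 also lay across the untreated range. Stat2 stood at 49.2, 17.1, 24.8 and 30.4 CPM, Usp18 at 12.8, 11.6, 10.2 and 11.5 CPM and Ifit1 at 89.1, 25.3, 70.2 and 47.1 CPM. Ifit3 stood at 98.4, 24.02, 40.3 and 77.6 CPM (1.05 ± 0.43, adjusted p = 0.23) and Rsad2 at 262, 44.4, 169.9 and 218 CPM (0.77 ± 0.40, adjusted p = 0.36). Replicate 2 was the lowest in all of these but Usp18. Ubd stood at 77.5, 4.23, 11.2 and 22.1 CPM (0.17 ± 0.73, adjusted p = 0.94), Mx1 at 3.22, 0.736, 3.04 and 2.93 CPM and Lgals3bp at 284, 169.8, 199.9 and 197 CPM. Oasl2 stood at 129, 75.2, 80.6 and 91.01 CPM, Oas1a at 3.86, 8.56, 8.09 and 9.44 CPM, Parp14 at 103, 43.8, 64.7 and 82.0 CPM, Ifi27l2a at 636, 248, 444 and 334 CPM and Ifi47 at 341, 67.0, 222 and 189.9 CPM. All of these groups overlapped the untreated aged libraries. Beside these values the T cell markers summed to 144 to 363 CPM and the macrophage markers to 1600 to 3225 CPM under TRi-1, with 0 of 9 and 0 of 10 passing against untreated aged ovaries. Granulosa markers summed to 65.9 to 1375 CPM, against 45.6 to 139 CPM in untreated aged ovaries, with 0 of 6 passing. The part of these cells was not tested.

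Auranofin was compared with untreated aged ovaries of experiment 2. By edgeR 0 of 42 members passed (background 0.0184% of 16309 genes in either direction), 7 had an unadjusted p under 0.05, as did 1148 of all genes, and DESeq2 and limma-voom each called 0. Values were negative for 38 of 42, with a median of -0.47 against 0.02 over all genes, and 1 member was lower without overlap (background 1.54%). That member was Oasl2, at 57.0, 82.5, 69.2, 68.3 and 61.9 CPM in untreated and 31.2, 50.05, 32.7 and 32.6 CPM in treated ovaries (-0.89 ± 0.26, adjusted p = 0.46). Gbp5 had the smallest p, at 19.2, 29.0, 29.9, 26.5 and 13.7 CPM in untreated and 10.6, 14.1, 3.95 and 6.82 CPM in treated ovaries (-1.41 ± 0.39, adjusted p = 0.42), and Ifit3 stood at 10.3, 36.1, 22.2, 39.8 and 35.9 CPM in untreated and 4.65, 13.5, 12.2 and 20.9 CPM in treated ovaries (-1.18 ± 0.43, adjusted p = 0.58). Auranofin replicate 2 was the treated library inside the untreated range for Gbp5, and all but replicate 1 were inside it for Ifit3.

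**Figure D5:**
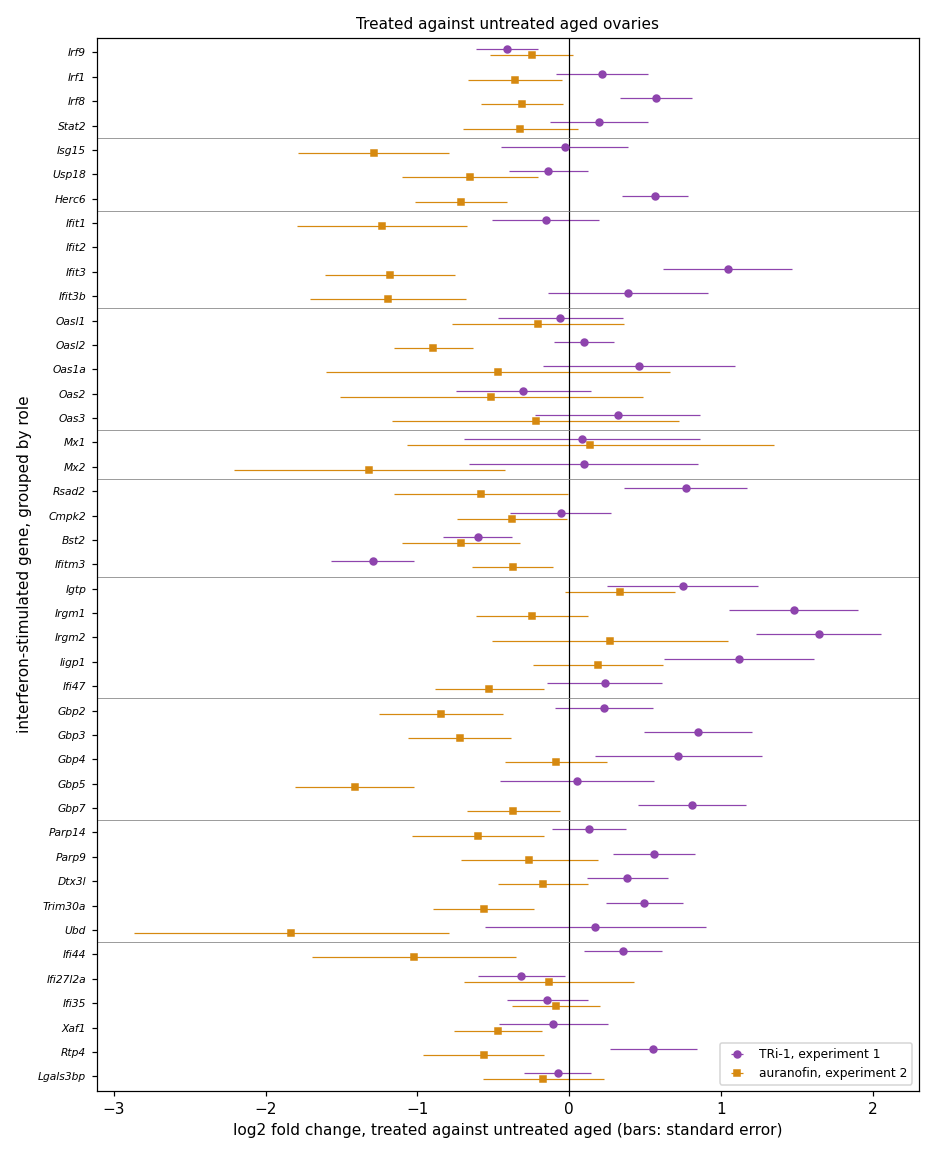
Points are log2 fold changes of treated against untreated aged ovaries with standard errors, for each member (rows, grouped by role), for TRi-1 in experiment 1 (circles) and auranofin in experiment 2 (squares). The TRi-1 values lie on both sides of 0, from -1.29 for Ifitm3 to 1.64 for Irgm2, while 38 of 42 auranofin values lie below 0.

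Isg15 and Ifit1 were low in 3 of the 4 auranofin libraries. Isg15 stood at 10.1, 26.1, 6.11 and 6.15 CPM, with replicate 2 inside the untreated range and the other 3 below it (-1.29 ± 0.50, adjusted p = 0.60, 95% interval -2.26 to -0.31). Ifit1 stood at 11.5, 24.3, 9.25 and 4.16 CPM (-1.24 ± 0.56, adjusted p = 0.69) and Usp18 at 3.07, 5.24, 4.94 and 5.57 CPM (-0.65 ± 0.45, adjusted p = 0.82). Gbp2 stood at 102, 133, 56.2 and 30.8 CPM, with replicates 1, 3 and 4 below all untreated aged libraries (-0.85 ± 0.41, adjusted p = 0.72). Replicates 3 and 4 were also below them for Irf1, at 129, 106, 51.1 and 40.4 CPM (-0.36 ± 0.31, adjusted p = 0.87). Igtp stood at 121, 79.8, 31.3 and 76.9 CPM (0.33 ± 0.36, adjusted p = 0.90) and Iigp1 at 166, 82.9, 27.9 and 35.6 CPM (0.19 ± 0.43, adjusted p = 0.96). In both, replicate 1 was above and replicate 3 below the untreated range, and for Iigp1 replicate 4 was below it too. Ifitm3 stood at 1054, 1086, 1042 and 1866 CPM, with replicate 4 apart from the other 3 (-0.37 ± 0.27, adjusted p = 0.82), and Ubd at 1.80, 3.90, 0 and 1.25 CPM (-1.83 ± 1.04, adjusted p = 0.77). Irf9 stood at 62.5, 62.7, 76.0 and 65.0 CPM and Irf8 at 69.9, 68.9, 35.0 and 50.05 CPM (-0.25 ± 0.27, adjusted p = 0.90, and -0.31 ± 0.27, adjusted p = 0.87). Stat2 stood at 10.9, 23.3, 17.1 and 11.6 CPM, Oas1a at 4.65, 5.95, 1.62 and 0 CPM, Mx1 at 1.42, 1.02, 3.59 and 1.50 CPM and Rsad2 at 30.7, 32.5, 11.7 and 66.8 CPM. Bst2 stood at 33.0, 32.1, 48.1 and 29.4 CPM, with 3 of 4 libraries below the untreated range (-0.71 ± 0.39, adjusted p = 0.76), Gbp4 at 18.2, 10.4, 7.19 and 5.99 CPM and Parp14 at 22.0, 28.4, 26.1 and 50.5 CPM. Ifi27l2a stood at 238, 291, 103 and 933 CPM and Lgals3bp at 99.8, 117, 109 and 313 CPM, both highest in replicate 4 and above the untreated range there. T cell markers summed to 21.6 to 149.9 CPM and macrophage markers to 806 to 5793 CPM under auranofin, both lowest in replicate 3, with 0 of 9 and 0 of 10 passing. The part of these cells was not tested.

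Treated aged ovaries were also set against young ones, which share their controls with the age comparisons. In experiment 1, 36 of 42 members were higher in TRi-1 aged than in young ovaries and 0 lower (background for higher 10.9%). The smallest p were those of Irf8 (2.35 ± 0.23, adjusted p = 8.4e-06), Ifi47 (3.12 ± 0.38, adjusted p = 4.2e-05) and Igtp (4.07 ± 0.52, adjusted p = 5.9e-05). Gbp7, Herc6, Ifit3, Irgm1, Parp9, Rtp4 and Trim30a passed here and not between untreated groups, while Bst2, Ifi27l2a and Ifitm3 did the reverse. Ifitm3 stood at 0.57 ± 0.26 (adjusted p = 0.13) against young. Of the 36 calls, 29 held without any 1 of the 13 libraries. Mx1 lost its call in 8 such fits, Parp9 in 6, Gbp7 and Ifi35 in 5 each, and Oasl1, Cmpk2 and Rtp4 without TRi-1 replicate 1.

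In experiment 2, 3 of 42 members were higher in auranofin aged than in young ovaries and 0 lower (background for higher 5.42%). These were Igtp (1.57 ± 0.37, adjusted p = 0.014), Ifi47 (1.35 ± 0.36, adjusted p = 0.028) and Gbp5 (1.30 ± 0.39, adjusted p = 0.046). Igtp lost its call without auranofin replicate 1, and Ifi47 and Gbp5 lost theirs in 6 and 10 of the 14 fits that leave out 1 library. The median over the 42 members was -0.05. Without young replicate 3 the number was 6 (share of all genes not given here): Oasl1, Oas3, Mx1, Ifitm3, Igtp and Ifi47, with a median of 0.35. Mx1 then stood at 2.78 ± 0.85 (adjusted p = 0.048), against -1.15 ± 1.23 (adjusted p = 0.64) with that library.

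The treatment effects were last compared with each other, auranofin minus TRi-1, each relative to its own untreated aged group. The 2 drugs were given in separate experiments, and their doses and times are not stated, so drug and experiment cannot be told apart. By edgeR 0 of 43 members passed (background 0.0172% of 17484 genes in either direction), 12 had an unadjusted p under 0.05, as did 1900 of all genes, and DESeq2 and limma-voom each called 0. Of 43 values 37 were negative. The smallest p were those of Ifit3 (-2.24 ± 0.64, adjusted p = 0.21), Herc6 (-1.29 ± 0.39, adjusted p = 0.22) and Gbp3 (-1.60 ± 0.52, adjusted p = 0.26). Herc6, an ISG15 ligase, stood at 56.5, 40.9, 34.3 and 44.6 CPM in untreated and 81.4, 49.1, 62.2 and 71.8 CPM in TRi-1 aged ovaries of experiment 1, and at 17.1, 46.4, 48.4, 48.8 and 39.2 CPM in untreated and 23.99, 27.4, 15.5 and 31.0 CPM in auranofin aged ovaries of experiment 2. Gbp3 stood at 28.3, 40.6, 19.4 and 44.3 CPM in untreated and 103, 25.3, 49.7 and 65.8 CPM in TRi-1 aged ovaries, and at 22.2, 27.8, 38.1, 31.5 and 20.9 CPM in untreated and 21.7, 24.6, 15.4 and 6.57 CPM in auranofin aged ovaries. For both genes the treated libraries of each experiment overlapped the untreated aged ones.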

How the data were processed

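The authors deposited 1 table of raw counts per gene ID for the 27 libraries, and every level here was computed from those counts. Per the submitters' processing notes, RSEM 1.2.3, DESeq2 and the mm10 build were used, with roles not stated. The strand of counting and the annotation are not given in the sources used here. Symbols were taken from GENCODE M21. The counts, all whole numbers, were filtered with edgeR's filterByExpr, scaled by TMM and tested with edgeR 4.0.16 (glmQLFit, R 4.3.3). One fit was made per experiment over its 3 groups and 1 over all 27 libraries with 6 groups. DESeq2 1.42.0 and limma 3.58.1 (voom) were alternatives, as were other filters and scalings, a replicate block and leaving out each library. The procedure was also run on simulated data, but the outcome is not reported here, so no power or error of these tests is stated. None of the 48 pairs of libraries within a group agreed within sampling noise. Named genes were 22 members fixed by role, the 3 members of smallest p in each comparison, members called in a difference test, called genes of the other lists and Irf7, Ifng, Ifnb1, Ifnar1, Cxcl9 and Cxcl10. One gene of the pathway lists is not reported here. Other names were chosen after their values were seen. The 43 members, the other lists and the motifs were chosen with earlier results of these data known. The interval of the Ifng ratio and the floors cover counting error only. Intervals of the changes between groups follow from edgeR's standard errors, which include the spread between libraries.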

Additional observations from a re-analysis of the deposited data

Results flagged for a closer look

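In each group every member was examined for 1 library far from the rest of its group (Dixon's ratio at the 95% level), over 258 pairs of gene and group. Chance flags about 1 in 20 groups, and 24 pairs were flagged. Of these, 15 had young replicate 3 of experiment 2 as the high library: Irf9 at 105, Stat2 at 42.8, Usp18 at 16.8, Ifit1 at 43.6, Ifit3b at 12.0, Oasl1 at 16.1, Oas2 at 24.2, Oas3 at 18.2, Mx1 at 19.6, Bst2 at 128, Ifi47 at 50.3, Gbp4 at 10.4, Trim30a at 108, Ifi44 at 115 and Rtp4 at 168 CPM. Young replicate 4 of that experiment was high for Iigp1 at 53.2 CPM and for Ubd at 0.874 CPM, and aged replicate 4 for Oasl1 at 13.1 CPM. Under auranofin replicate 2 was high for Oasl2 at 50.05 CPM, and replicate 4 for Ifitm3 at 1866 CPM and Lgals3bp at 313 CPM. In experiment 1 young replicate 5 was high for Rsad2 at 56.6 CPM, TRi-1 replicate 1 was high for Irf8 at 138 CPM and TRi-1 replicate 2 was low for Mx1 at 0.736 CPM.

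In 3 genes every treated or aged library of one experiment lay above the mean CPM of its reference group (untreated aged or young) and every such library of the other experiment lay below it. They were Herc6 under treatment, with a difference of -1.29 ± 0.39, adjusted p = 0.22, Mx1 with age (-3.57 ± 1.51, adjusted p = 0.34) and Parp9 with age (-0.79 ± 0.53, adjusted p = 0.58). In edgeR's test of the difference itself none of the 3 passed. For Mx1 and Parp9 the young mean of experiment 2 was raised by young replicate 3. It stood at 19.6 and 168 CPM, against means of 0.268 and 42.0 CPM in the other young libraries. Without that library the age values of experiment 2 were 2.64 ± 0.83 for Mx1 and 0.09 ± 0.30 for Parp9.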

How the results depend on the processing

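The number of members called held within 1.5 times for age in experiment 1, TRi-1 aged against young, and both experiments together. With limma-voom the count for age in experiment 2 was 16, and 14 without the libraries that stood apart. For TRi-1 against untreated aged ovaries the count of 0 became 3 with DESeq2 and 1 each with limma-voom, no filter, a filter at 5 CPM and haemoglobin genes left out. For auranofin aged against young it became 5 with DESeq2, 10 with limma-voom, 1 with only the groups compared, 0 with a replicate block and 7 without the libraries that stood apart. For the difference in age effect DESeq2 called 1. The share of all genes called under each of these alternatives is not given here. A setting that calls more genes of every kind therefore cannot be told from one that calls more members in particular. Leaving out 1 library at a time gave 26 to 32 for age in experiment 1, 6 to 14 in experiment 2, 0 to 2 for TRi-1, 0 to 0 for auranofin, 29 to 36 and 0 to 6 for TRi-1 and auranofin aged against young, 20 to 34 for both experiments and 0 to 0 for both differences. Mx1 for auranofin aged against young ranged from -1.69 (without auranofin replicate 3) to 2.78 (without young replicate 3), a turn of sign. The alternatives without libraries that stood apart and without haemoglobin genes were chosen after seeing the data. With the replicate block 26 members were called for age in experiment 1, 7 in experiment 2, 29 for TRi-1 aged against young and 27 for both experiments. Same-numbered libraries did not deviate together (mean correlation -0.057 over 12 pairs in experiment 1 and 0.059 over 13 in experiment 2), so the labels' numbers were not read as pairs. With GAA as the last part of the ISRE core 19 of 33 promoters (57.6%) matched, against 8.56% of all, and with 4 bases inside the GAS 4 of 33 (12.1%), against 6.95%. Depth limits the scarce members: Ifit2 could not be tested within an experiment, and Mx1, Oas1a, Irgm2 and Ubd have libraries at or near 0.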

Other observations

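Of the 33 other interferon targets tested, 23 had a positive value under TRi-1, with a median of 0.18, and 27 had a negative one under auranofin, with a median of -0.32. Under auranofin all 8 B and plasma cell markers (median -1.58) and all 5 plasmacytoid dendritic cell markers (median -0.87) lay below 0. Their summed levels were 97.9 to 961 CPM against 473 to 1000 CPM and 7.12 to 26.7 CPM against 33.1 to 54.5 CPM in untreated aged ovaries. Macrophage markers went both ways: mean CPM was higher than in untreated aged ovaries for C1qa (1015 against 709), C1qb, Cd68 and Mrc1 (60.2 against 48.0). It was lower for the other markers of that list, as for Fcgr1 (17.7 against 22.4) and Adgre1 (53.2 against 62.9). Neutrophil markers had positive values for 6 of 8 (median 0.79). These are values only, since no gene of these lists passed by edgeR.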
